A study of Mus musculus with 149 samples.

Results

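Cell division and DNA replication are run by a set of genes whose transcripts build up as cells move from G1 into S phase and mitosis, and 55 such genes were described here across lungs of mice challenged with the epithelial cytokine TSLP (thymic stromal lymphopoietin). The genes were chosen by a rule on symbols alone, which was set with earlier results of these data known. It covers every gene whose symbol starts with Cenp, Ncap, Gins, Ccnb, Rfc, Orc plus a digit or Mcm plus a digit, together with Cdk1, Ccna2, Tyms, Aurka, Aurkb, Bub1, Bub1b, Top2a and Mki67. Those measured were 55 of the 13494 genes measured. The same rule matched 65 protein-coding genes in RefSeq, and the other 10, among them Mki67, Top2a, Ccnb1 and Mcm4, had no probe set named for them alone in the table used and were not analysed here. The rule takes in by its letters Mcm3ap, which is no helicase subunit, and Cenpj, a centriole protein.

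RNA of whole lungs was measured on Affymetrix arrays in BALB/c mice that were OVA-sensitized (OVA is ovalbumin, a model allergen) or naive. Each mouse was challenged with saline, with a buffer given in the labels as 0.1% MSA, which is not spelled out there, or with 150, 500 or 1500 ng of TSLP, and its lung was taken 24 h or 6 h later. These 20 groups held 6 to 8 arrays each, which came from 76 OVA and 73 naive mice, with 1 array per animal. All mice carried the same strain background, and neither a transgene nor a deletion is named. Age, sex and the sensitization schedule are not named in the labels, nor is an array batch. Values are log2 levels, normalized together by RMA (robust multi-array average), so a difference of 1 is a 2-fold change, and levels of different genes are not compared with each other.

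Cdk1 with its cyclins A2 (Ccna2) and B2 (Ccnb2) drives cells into mitosis, the Aurora kinases (Aurka, Aurkb) and Bub1 and Bub1b control spindle attachment, the Cenp proteins build the kinetochore, and the condensins (Ncap) compact chromosomes. Earlier, in G1, the origin recognition complex (Orc) marks replication origins, and the Mcm2 to Mcm7 helicase is loaded there. In S phase Mcm10 and the GINS complex (Gins) switch that helicase on, replication factor C (Rfc) loads the sliding clamp, and thymidylate synthase (Tyms) supplies a DNA precursor. In resting lung few cells divide, while allergic inflammation brings in and expands leukocytes and renews the epithelium.

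The arrays carried the marks of lung in every group: the mean log2 level of 6 lung epithelial markers lay between 12.97 and 13.36 in OVA lungs and between 12.93 and 13.31 in naive lungs. Array medians lay between 8.97 and 9.16. In 6 arrays keratins of the gullet lining stood over 2 log2 units above their medians, and results were recomputed without them. RNA quality or labelling differed between groups at 6 h: the beta-actin 3' minus 5' signal averaged 2.57 ± 0.26 in the OVA buffer group and 1.26 ± 0.12 in the OVA 1500 ng group (SD, n = 8 each). At 24 h its group means lay between 1.25 and 1.60.

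Most of these genes were higher in OVA than in naive lungs, whatever the challenge and the time. Of the 55 genes, 19 rose in all 10 comparisons of OVA with naive mice at the same challenge and time, as did 316 of all 13494 genes, which is 2.34%. These 10 comparisons share no array, only the estimate of each gene's spread. The count of 19 is bounded by the comparison after buffer at 24 h, where 21 rose. That comparison rested in part on a single lung (below). In 22 of the 55 genes every OVA group mean lay above every naive group mean, and the highest of the 20 group means was an OVA group in 45 genes. The shares of all genes for these counts were not computed, so neither count is set against a background. In whole lung, more dividing cells and more of these transcripts per cell cannot be told apart.

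**Figure D1:**
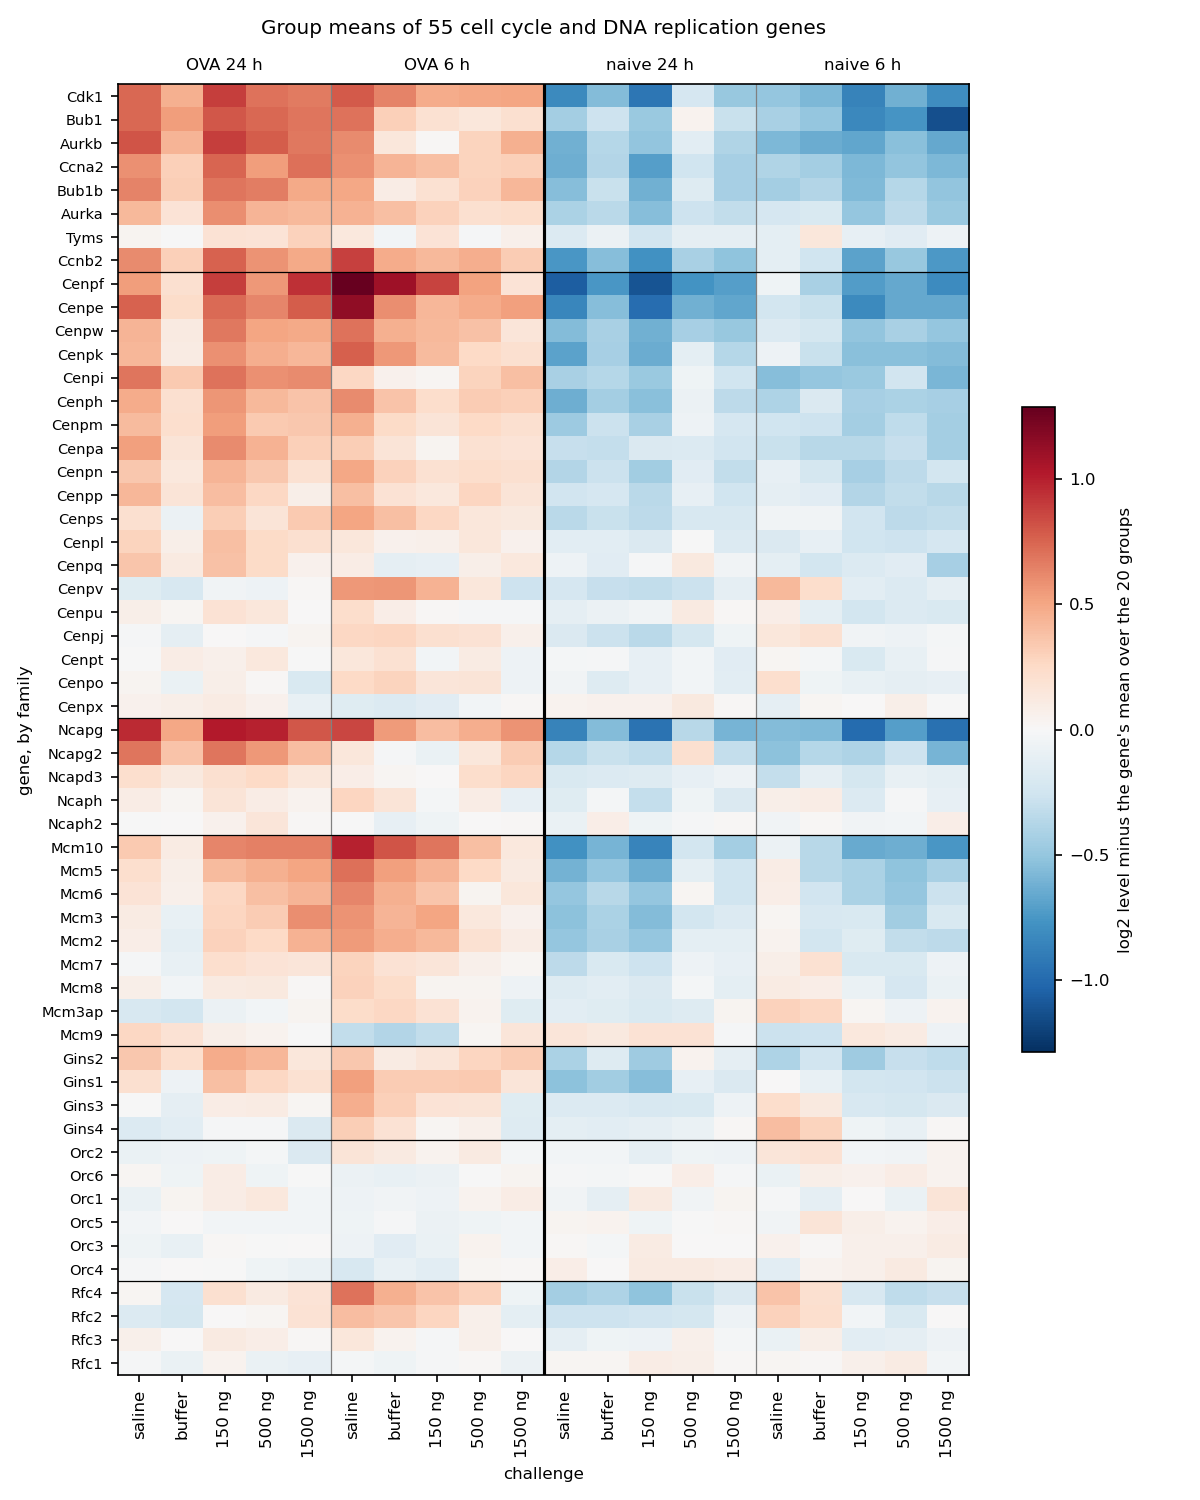
Group means of 55 cell cycle and DNA replication genes (down the page, by family) in the 20 groups, as log2 level minus the gene's own mean over the 20 groups; red is above and blue below that mean. OVA groups stand left of naive groups, 24 h left of 6 h, and challenges run from saline to 1500 ng TSLP. The Cdk1, Cenpf, Ncapg and Mcm10 rows are red in the OVA groups and blue in the naive ones, and the Orc rows are close to white throughout.

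Cdk1, the kinase that triggers mitosis, had a lowest, median and highest level of 8.59, 10.06 and 10.97 over the 76 OVA lungs, against 8.04, 8.67 and 9.85 over the 73 naive lungs. Of the OVA lungs, 52 lay above the highest naive lung. Its OVA group means ran from 9.83 to 10.27 and its naive group means from 8.45 to 9.16, so the 2 sets of means did not overlap. The difference was widest after 150 ng of TSLP at 24 h, where Cdk1 had a lowest, median and highest level of 9.51, 10.30 and 10.84 in OVA lungs and of 8.04, 8.45 and 8.85 in naive lungs (difference 1.81, SE 0.23, limma adjusted p = 2.81e-10). No OVA lung overlapped with a naive one there. After buffer at 24 h the levels of Cdk1 were 9.38, 9.76 and 10.59 in OVA lungs, against 8.42, 8.78 and 9.21 in naive lungs (difference 1.01, SE 0.22, limma adjusted p = 0.00114). The largest limma adjusted p of Cdk1 over the 10 comparisons was 0.00143.

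**Figure D2:**
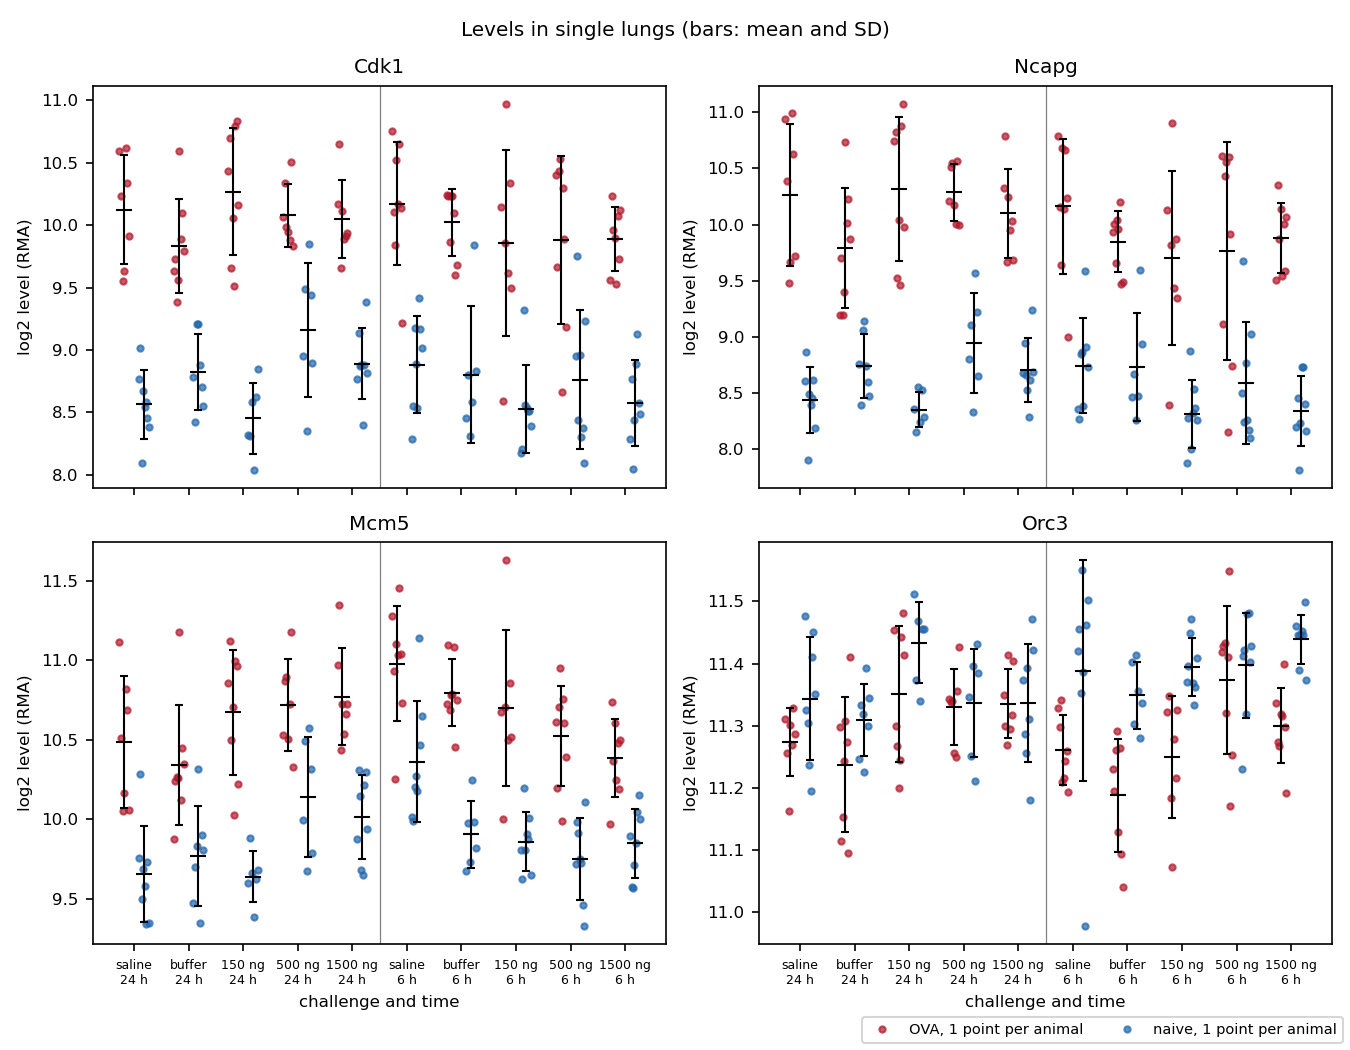
Log2 level (vertical axis) of Cdk1, Ncapg, Mcm5 and Orc3 in each lung, 1 point per animal, for each challenge at 24 h (left) and 6 h (right), with OVA lungs in red left of naive lungs in blue and bars for the mean and SD. For Cdk1 and Ncapg most red points lie above the blue ones (52 and 54 of 76 above every naive lung), for Mcm5 only 6 do, and for Orc3 none does.

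Ncapg, a subunit of condensin I, and Cenpf, a kinetochore protein made in G2 and mitosis, had the widest differences. Over all OVA lungs the lowest, median and highest level of Ncapg were 8.15, 10.01 and 11.07, against 7.82, 8.53 and 9.67 over all naive lungs. Ncapg rose in each comparison, by 1.06 to 1.97 with a median of 1.39, and its largest limma adjusted p was 0.00297. Cenpf had 6.46, 8.34 and 9.63 over OVA lungs and 6.13, 6.86 and 9.02 over naive lungs, so the lungs overlapped more than for Ncapg. Its differences ran from 0.96 to 2.0 with a median of 1.42 and a largest limma adjusted p of 0.0171. A second probe set of Cenpf gave a smaller median difference of 0.53, while a second one of Ncapg gave 1.46.

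Members of the same family did not move alike. All of the 7 cyclins, Cdk1, Aurora and Bub kinases measured rose in all 10 comparisons; after Cdk1 the median differences were 1.0 for Ccnb2 and for Bub1, 0.99 for Aurkb, 0.93 for Ccna2, 0.87 for Bub1b and 0.70 for Aurka. Group means of Bub1 lay between 8.21 and 8.86 in OVA and between 6.93 and 8.10 in naive mice. Group means of Aurkb lay between 6.99 and 7.86 in OVA and between 6.31 and 6.84 in naive mice. Those of Ccna2 (9.92 to 10.37 in OVA, 8.92 to 9.37 in naive), Ccnb2 (9.16 to 9.74 in OVA, 8.09 to 8.74 in naive), Bub1b (8.15 to 8.74 in OVA, 7.43 to 7.88 in naive) and Aurka (8.41 to 8.84 in OVA, 7.69 to 8.04 in naive) did not overlap either. Tyms, the DNA precursor enzyme, rose in 3 of 10 comparisons with a median difference of 0.24, and its group means of 6.69 to 7.03 in OVA and 6.48 to 6.88 in naive mice overlapped. Its only probe set was dim, with a mean above that of 9.26% of genes, which limits what can be seen.

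Among the 19 Cenp genes, 8 rose in all 10 comparisons, against 2.34% of all genes. The widest median differences after Cenpf were those of Cenpe, a kinetochore motor (1.25), Cenpw (0.90), Cenpk (0.82), Cenpi (0.76) and Cenph (0.72), which are parts of the inner kinetochore. Cenpa, the histone H3 variant that marks centromeres, rose in all 10 with a median of 0.58. At the other end Cenpx, which also serves in DNA repair, rose in none and fell in 4, with a median of −0.06 and group means of 11.76 to 12.04 in OVA and 11.82 to 12.06 in naive mice. Of the 5 condensin genes, Ncapg was the only one that rose in all 10, while Ncapd3 rose in 9 (median 0.34), Ncapg2 in 6 (0.66) and Ncaph in 3 (0.15). Ncaph2, the condensin II kleisin, rose and fell in none, with group means of 10.13 to 10.40 in OVA and 10.15 to 10.33 in naive mice. Its other probe sets had medians of −0.22 and 0.15.

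Among the replication genes most helicase genes rose, while the origin recognition genes differed little. Mcm10 had the widest difference: the lowest, median and highest level were 7.44, 8.50 and 9.81 over OVA lungs, against 6.84, 7.30 and 8.38 over naive lungs. It rose in all 10 comparisons by 0.70 to 1.48 with a median of 1.07, which is 2.10-fold. Mcm5 and Mcm6, subunits of the helicase ring, rose in all 10 as well, with medians of 0.77 and 0.61. Mcm2 rose in 9 (median 0.55), Mcm3 in 8 (0.61) and Mcm7 in 6 (0.25). Mcm8, a helicase of DNA repair, rose in 1 (0.15). Its partner Mcm9 rose in 1 and fell in 1 (median −0.06), and Mcm3ap likewise (0.00).

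All 6 Orc genes had median differences between −0.11 and −0.01. Orc3, a core subunit of the complex, had a lowest, median and highest level of 11.04, 11.30 and 11.55 over OVA lungs and of 10.98, 11.39 and 11.55 over naive lungs. It fell in 4 comparisons, all at 6 h, by at most 0.16 on the log2 scale after buffer (limma adjusted p = 0.00647), and no OVA lung lay above the highest naive lung. Orc4 and Orc5 each fell in 3 and Orc6 in 2, Orc2 rose in 1, and Orc1 neither rose nor fell. At 6 h 3 of the 6 Orc genes fell after buffer (18% of all genes) and 4 after 150 ng (22.4%). The mean beta-actin signal there was 2.57 in OVA and 2.14 in naive lungs after buffer, and 2.29 and 1.64 after 150 ng. Group means of Orc2 were 10.21 to 10.55 in OVA and 10.27 to 10.58 in naive mice, and those of Orc6 were 9.69 to 9.88 in OVA and 9.70 to 9.88 in naive mice. The probe sets of some genes disagreed: a second one of Orc1 had a median difference of 0.36 against −0.03, and the others of Orc4 had 0.04, 0.06 and 0.28 against −0.11.

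The helicase activators and clamp loader stood in between. Of the GINS genes, Gins1 rose in 9 comparisons (median 0.48), Gins2 in 8 (0.59) and Gins3 in 5 (0.21), and Gins4 fell in 2 (−0.03). Group means of Gins1 were 8.90 to 9.48 in OVA and 8.41 to 8.96 in naive mice, and those of Gins4 were 10.66 to 11.17 in OVA and 10.72 to 11.25 in naive mice. Of the clamp loader genes, Rfc4 rose in 7 (0.38) and Rfc2 in 5 (0.20), Rfc3 in 1 (0.10), and Rfc1, the large subunit, fell in 2 (−0.07). Rfc4 group means ran from 10.33 to 11.24 in OVA and from 10.03 to 10.91 in naive mice, and Rfc1 means from 11.52 to 11.67 in OVA and from 11.59 to 11.73 in naive mice.

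**Figure D3:**
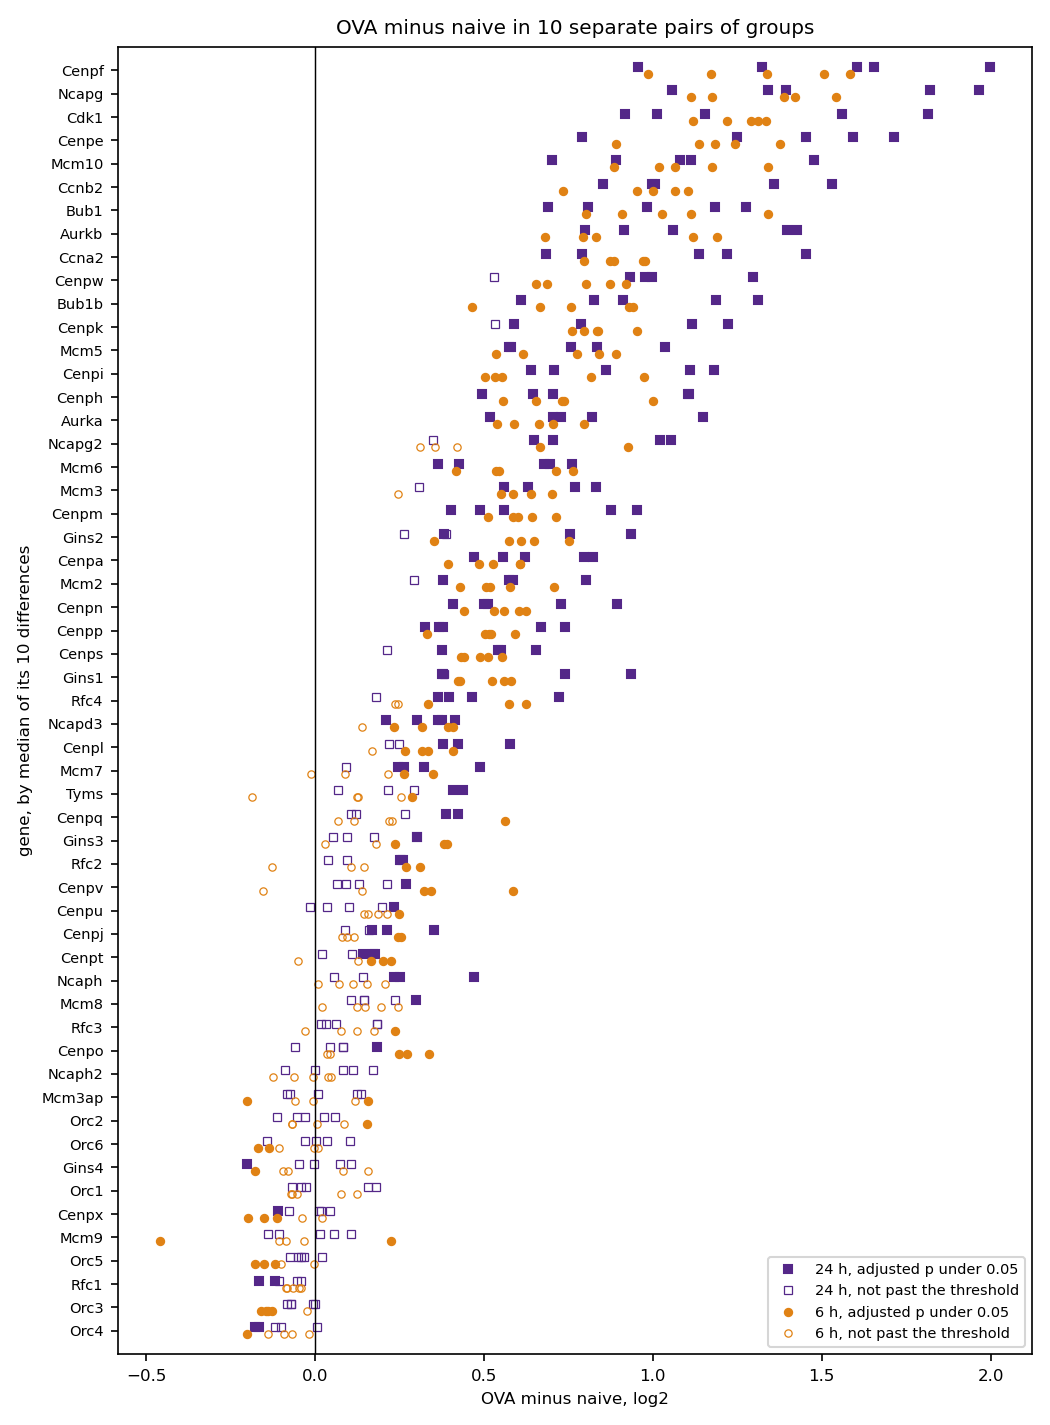
OVA minus naive difference in log2 level (horizontal axis) for each of the 55 genes (down the page, by the median of its 10 differences), with purple squares for the 5 challenges at 24 h and orange circles for those at 6 h; filled marks have a limma adjusted p under 0.05. Cenpf, Ncapg and Cdk1 stand at the top with all 10 marks filled and medians of 1.42, 1.39 and 1.26, and Orc4 and Orc3 at the bottom with medians of −0.11 and −0.08.

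Counted per comparison at a limma adjusted p under 0.05, the genes that rose outnumbered those that fell each time. At 24 h after saline, 34 of 55 rose and 0 fell, against 14% of all genes that rose and 16.4% that fell. At 24 h after buffer 21 rose and 0 fell (all genes 5.03% and 3.53%). At 24 h after 150 ng 42 rose and 0 fell (17.2% and 15.3%), after 500 ng 33 rose and 2 fell (16.8% and 16.1%), and after 1500 ng 34 rose and 4 fell (19.7% and 22.8%). The fewest rises were thus seen after buffer and the most after 150 ng. At 6 h after saline 32 rose and 1 fell (10.9% and 12.6%), after buffer 29 rose and 4 fell (15.7% and 18%), and after 150 ng 39 rose and 6 fell (23.6% and 22.4%). At 6 h after 500 ng 37 rose and 1 fell (18.3% and 13.8%), and after 1500 ng 30 rose and 4 fell (17.1% and 27.1%).

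The median difference over the 55 genes lay between 0.27 and 0.65 in the 10 comparisons, against −0.03 to 0.01 over all genes. The buffer count at 24 h rested in part on 1 lung: without OVA buffer replicate 8, the highest of its group for Cdk1 at 10.59 and for Cenpf at 9.08, 7 of the 55 genes were called. Without that lung no more than 7 genes could thus have risen in all 10 comparisons. With the beta-actin signal as a covariate, 330 of the 353 calls in the 10 comparisons remained. All calls at 24 h did, while at 6 h 32 of 45 remained after 150 ng and 28 of 33 after buffer. Without the gullet keratin arrays 23 of the 33 calls after buffer at 6 h remained.

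Groups without any overlap between OVA and naive lungs were found mainly at 24 h. After 150 ng at 24 h all OVA lungs lay above all naive lungs in 30 of 55 genes, against 6.74% of all genes. The count was 19 after saline (5.65% of all genes), 18 after 1500 ng (5.94%), 14 after 500 ng (7.83%) and 3 after buffer (1.01%), these 3 being Ccnb2, Cdk1 and Ncapg. At 6 h it was 20 after 1500 ng (3.96%), 4 after buffer (1.99%), 4 after 150 ng (4.52%), 2 after saline (1.19%) and 1 after 500 ng (1.27%).

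Within groups, the genes that differed most between OVA and naive lungs also went up and down together from animal to animal. With each group's mean removed, the levels of 34 of the other 54 genes correlated with Cdk1 at a Pearson r over 0.5 across all lungs, and each of these had a permutation p of 1e-05 for r and for Spearman's rho, the smallest that 100000 resamples can give. In all, 54 such relations were computed. The closest were Ncapg (r = 0.94, rho = 0.93), Ccna2 (r = 0.94, rho = 0.93), Ccnb2 (r = 0.91, rho = 0.89) and Cenpf (r = 0.89, rho = 0.87), followed by Aurkb (r = 0.88), Cenpm (r = 0.88) and Mcm10 (r = 0.87).

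At the other end 12 genes had r under 0.3: all 6 Orc genes (from −0.17 for Orc5 to 0.30, just under the limit, for Orc1), Rfc1, Mcm9, Mcm3ap, Ncaph2, Cenpv and Cenpx. Without the 2 lungs whose Cdk1 level lay farthest from their own group's mean, both OVA lungs at 6 h, the lowest r among the 34 was 0.551. It was 0.556 after removal of the beta-actin signal, 0.615 within OVA lungs and 0.389 within naive lungs. The points share arrays and their normalization. The median OVA minus naive difference ran from 0.15 to 1.42 among the 34 genes and from −0.11 to 0.18 among the 12.

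**Figure D4:**
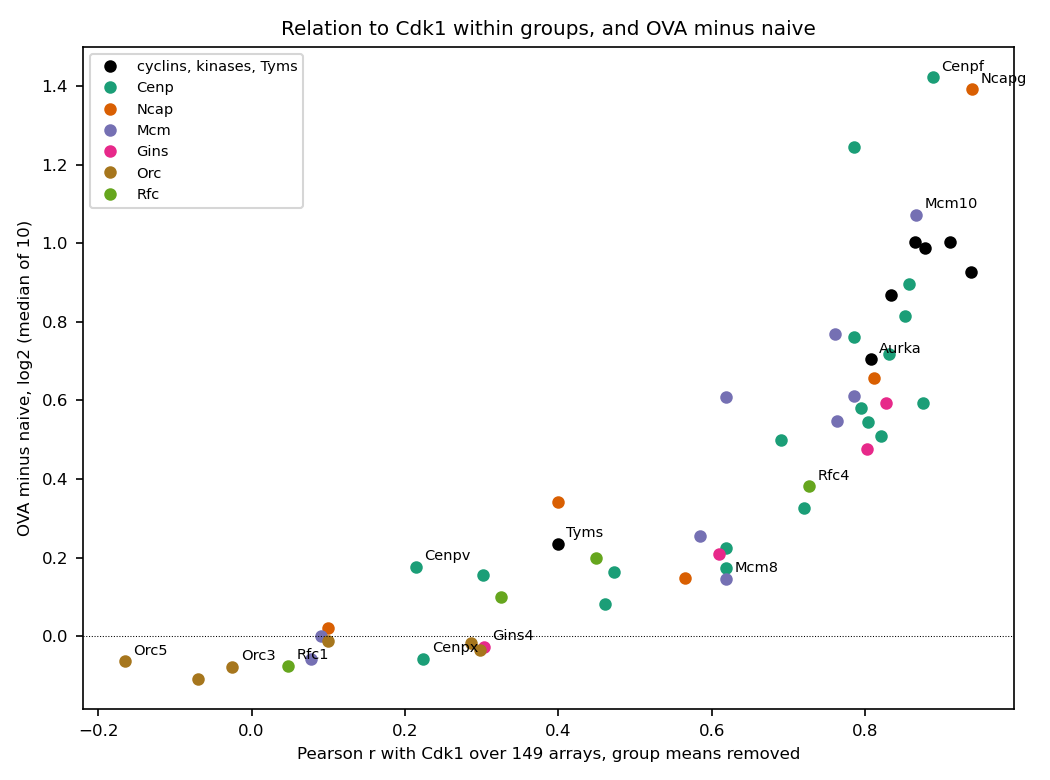
Pearson r with Cdk1 across the 76 OVA and 73 naive lungs with group means removed (horizontal axis) against the median OVA minus naive difference in log2 level (vertical axis), 1 point per gene, coloured by family. Ncapg and Cenpf lie at the upper right (r of 0.94 and 0.89), and the 6 Orc genes in brown lie at the lower left with r of at most 0.30.

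Promoters are shown because transcription of many mitotic genes is known to be held down in resting cells by the DREAM complex, which binds at the CHR (cell cycle genes homology region), and driven through CCAAT boxes by NF-Y and through E2F sites. The sequences run from 250 bases before to 50 bases after the gene start, come from RefSeq on GRCm38.p6 and are written 5′ to 3′ on the gene's strand. Capitals mark matches to CHR (TTTGAA), to the box CCAAT, or to E2F sites (the letters TTCCCGC, or else TTGGCGC, or else TTCGCGC, or else TTGCCGC), each searched on both strands. Cdk1 (chr10:69352863-69353162, minus strand), Ncapg (chr5:45669675-45669974, plus strand), Cenpf (chr1:189688037-189688336, minus strand), Cenpe (chr3:135212313-135212612, plus strand), Mcm10 (chr2:5012742-5013041, minus strand) and Bub1 (chr2:127831810-127832109, minus strand) are the 6 genes with a listed promoter and the widest range of group means. Orc3 (chr4:34614893-34615192, minus strand) is set beside them as a gene with a narrow range, and was chosen after its values were seen.
Cdk1: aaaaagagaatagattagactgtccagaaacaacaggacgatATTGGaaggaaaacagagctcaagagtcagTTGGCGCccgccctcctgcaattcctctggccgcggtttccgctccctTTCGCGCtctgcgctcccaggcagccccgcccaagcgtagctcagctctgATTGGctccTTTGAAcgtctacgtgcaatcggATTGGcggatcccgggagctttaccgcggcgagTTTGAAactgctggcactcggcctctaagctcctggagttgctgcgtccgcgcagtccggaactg
Ncapg: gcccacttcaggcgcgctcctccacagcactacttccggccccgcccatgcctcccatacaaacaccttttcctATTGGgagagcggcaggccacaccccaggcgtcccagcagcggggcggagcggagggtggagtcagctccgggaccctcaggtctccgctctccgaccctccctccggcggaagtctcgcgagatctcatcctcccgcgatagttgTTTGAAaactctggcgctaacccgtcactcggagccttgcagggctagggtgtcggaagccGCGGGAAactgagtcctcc
Cenpf: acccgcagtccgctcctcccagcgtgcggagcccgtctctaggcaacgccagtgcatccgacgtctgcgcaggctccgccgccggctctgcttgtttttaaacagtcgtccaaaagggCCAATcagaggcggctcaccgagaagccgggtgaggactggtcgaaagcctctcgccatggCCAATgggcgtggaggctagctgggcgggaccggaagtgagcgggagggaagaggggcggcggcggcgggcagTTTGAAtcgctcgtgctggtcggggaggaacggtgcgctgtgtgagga
Cenpe: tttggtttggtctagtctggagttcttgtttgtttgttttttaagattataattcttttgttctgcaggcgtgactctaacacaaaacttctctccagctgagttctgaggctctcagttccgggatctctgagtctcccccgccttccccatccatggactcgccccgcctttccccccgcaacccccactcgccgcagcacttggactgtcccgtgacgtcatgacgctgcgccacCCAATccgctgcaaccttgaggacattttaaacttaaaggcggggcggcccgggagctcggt
Mcm10: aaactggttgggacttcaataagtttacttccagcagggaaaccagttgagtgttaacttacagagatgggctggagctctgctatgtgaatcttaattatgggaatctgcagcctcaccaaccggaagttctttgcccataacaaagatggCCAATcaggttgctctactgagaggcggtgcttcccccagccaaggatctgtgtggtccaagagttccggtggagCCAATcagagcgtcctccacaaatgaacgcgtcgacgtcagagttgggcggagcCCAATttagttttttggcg
Bub1: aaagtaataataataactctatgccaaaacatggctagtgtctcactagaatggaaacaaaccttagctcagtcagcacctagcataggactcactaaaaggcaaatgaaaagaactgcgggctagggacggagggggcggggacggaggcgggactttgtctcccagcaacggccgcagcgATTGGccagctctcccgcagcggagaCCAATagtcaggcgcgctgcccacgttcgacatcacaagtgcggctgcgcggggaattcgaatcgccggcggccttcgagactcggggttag
Orc3: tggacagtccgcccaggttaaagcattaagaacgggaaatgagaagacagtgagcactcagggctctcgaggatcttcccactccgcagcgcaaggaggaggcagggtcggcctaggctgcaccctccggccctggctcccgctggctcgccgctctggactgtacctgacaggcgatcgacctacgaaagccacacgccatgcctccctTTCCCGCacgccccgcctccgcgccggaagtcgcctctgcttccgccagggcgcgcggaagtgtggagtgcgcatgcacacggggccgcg

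The Cdk1 promoter held 2 CHR matches, starting 71 and 15 bases before the gene start, with 3 CCAAT boxes and 2 E2F matches. Ncapg held 1 match of each kind, the CHR starting 30 bases before the start used. Cenpf held a CHR at base 3 counted from the start used and 2 CCAAT boxes 132 and 71 bases before it. For Ncapg, Cenpf and Orc3 the start used lay inside the gene's span in RefSeq, which began upstream at bases 45669891, 189688107 and 34614963. Cenpe, Bub1 and Mcm10 held 1, 2 and 3 CCAAT boxes and no match to the other letters searched. The letters TTTGAA were thus found in 3 of these 6 promoters, and Orc3 held 1 E2F match alone. A promoter was listed for 49 of the 55 genes, and 3 of their 57 promoters had matches of different kinds that overlap.

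Among the 31 genes with a listed promoter that were Cdk1 or had r over 0.5 to it, 41.94% held a CHR, 83.87% a CCAAT box, 54.84% an E2F match and 38.71% both CHR and CCAAT. Among the 12 genes with r under 0.3 the shares were 0%, 58.33%, 33.33% and 0%. Over all 27025 genes with a promoter of this length they were 20.23%, 41.06%, 10.86% and 8.97%. These are matches of the letters given, other spellings of these sites were not searched, and binding was not measured.

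Other genes of the cell cycle, listed by phase, differed between OVA and naive lungs by list. Of 33 measured G2 and mitosis genes (of 45 listed), 24 to 31 rose in a single comparison and 0 or 1 fell, 21 rose in all 10, and the median of the genes' median differences was 0.71. After buffer at 24 h the leading ones were Anln, which builds the cleavage furrow (0.70), Knl1, a kinetochore scaffold (0.81), and Ube2c, which marks mitotic cyclins for destruction (0.91). Of 31 measured G1/S and S phase genes (of 38), 8 to 28 rose and 0 fell, 4 rose in all 10, and the median was 0.32. Among them after buffer at 24 h were Uhrf1, which copies DNA methylation (0.87), Dbf4, which activates the Cdc7 kinase (0.48), and the repressor E2f7 (0.65). The 21 cell cycle brakes had a median of 0.00, with 0 to 4 up and 1 to 9 down in a comparison. Cdkn2b, an inhibitor of Cdk4 and Cdk6, fell by 0.31 after buffer at 24 h. The 10 genes of G1 entry had a median of 0.02, with 0 to 4 up and 0 to 4 down. Over all genes the median difference lay between −0.03 and 0.01. In a single comparison 5.03% to 23.6% of all genes rose and 3.53% to 27.1% fell, and 2.34% rose in all 10.

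Markers of several cell types moved with sensitization too. All 6 goblet cell markers rose in every one of the 10 comparisons, with mean log2 levels over the list of 9.79 to 12.59 in OVA and 7.49 to 10.68 in naive lungs. Of 6 plasma cell markers 4 or 5 rose and 0 or 1 fell (9.18 to 11.68 in OVA, 8.98 to 9.98 in naive). Of 4 markers of monocytes and interstitial macrophages 2 to 4 rose and 0 fell (10.89 to 12.42 in OVA, 10.33 to 11.71 in naive). Of 7 T cell markers 1 to 6 rose and 0 or 1 fell (8.17 to 10.22 in OVA, 8.42 to 9.72 in naive). Of 4 eosinophil markers 0 to 3 rose and 0 or 1 fell (5.99 to 9.10 in OVA, 5.85 to 6.80 in naive). None of 5 B cell markers rose or fell (9.19 to 11.27 in OVA, 9.21 to 10.77 in naive), and of the 3 measured of 6 germinal centre markers 0 or 1 rose and 0 or 1 fell (9.5 to 10.43 in OVA, 9.63 to 10.09 in naive). Endothelial markers fell in 1 to 6 of 7 and NK cell markers in 0 to 4 of 4. Neutrophil markers and erythroid precursor markers also fell in 0 to 4 of 4 each, and none of these rose. Of all genes 5.03% to 23.6% rose and 3.53% to 27.1% fell in a single comparison. The part of these cell types in the rise of the cell cycle genes was not tested.

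Some of the 55 genes were called higher after TSLP than after buffer in OVA lungs at 24 h. No call was made among them in naive lungs at that time, and a difference between OVA and naive lungs was not shown (below). At 150 ng 13 rose and 0 fell (all genes 7.2% and 3.26%), at 500 ng 5 rose and 0 fell (7.43% and 4.35%), and at 1500 ng 12 rose and 2 fell (21% and 17.5%). The share that rose, 9.09% at 500 ng and 21.8% at 1500 ng, was thus close to that of all genes at these doses. The medians of the 55 differences were 0.26, 0.20 and 0.15 at the 3 doses, against 0.01, 0.02 and 0.01 over all genes. The 3 doses are set against the same buffer lungs.

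**Figure D5:**
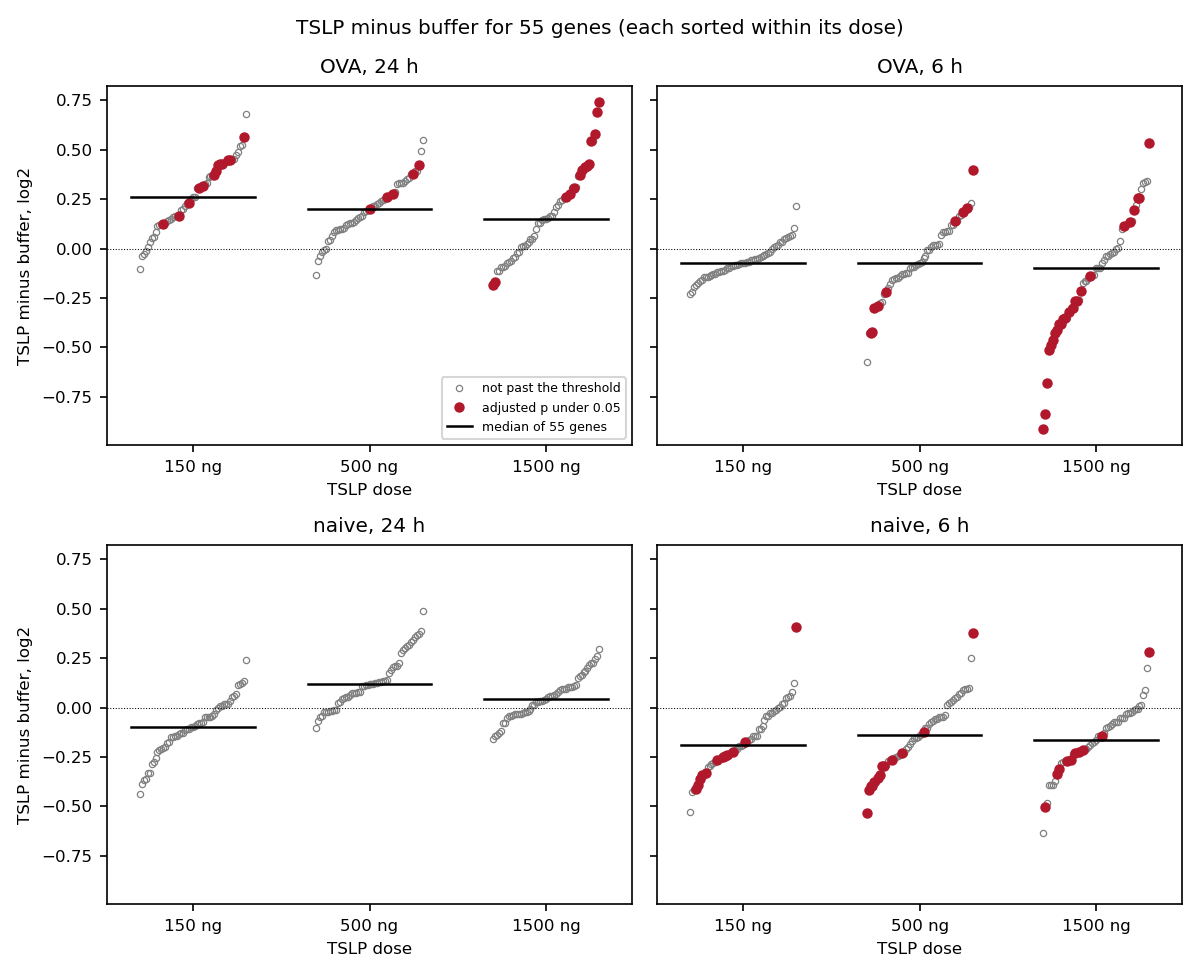
TSLP minus buffer difference in log2 level (vertical axis) of the 55 genes, sorted within each dose (horizontal axis), in OVA lungs (upper panels) and naive lungs (lower panels) at 24 h (left) and 6 h (right). Red points have a limma adjusted p under 0.05 and black lines are medians: in OVA lungs at 24 h the red points lie above 0 except 2 at 1500 ng, at 6 h most lie below 0, and the naive 24 h panel has none.

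Mcm3, a subunit of the helicase ring, had a lowest, median and highest level of 9.80, 10.24 and 10.90 after buffer in OVA lungs at 24 h, of 10.04, 10.75 and 10.96 after 150 ng, of 10.30, 10.66 and 10.99 after 500 ng and of 10.69, 10.99 and 11.17 after 1500 ng. The ranges overlapped at each dose. Its rise over buffer was 0.37 at 150 ng, 0.42 at 500 ng (limma adjusted p = 0.0154) and 0.69 at 1500 ng (SE 0.12, limma adjusted p = 3.66e-06). Saline lungs had 10.04, 10.53 and 10.91, with a median between that of buffer and those of TSLP.

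Mcm2 rose by 0.43, 0.38 and 0.58 at 150, 500 and 1500 ng, Mcm7 by 0.32, 0.28 and 0.26, Rfc2, a clamp loader subunit, by 0.23, 0.26 and 0.42, and Mcm3ap by 0.16, 0.20 and 0.28. At 150 ng the widest rises were those of Cenpw (0.57), Gins1 (0.45), Cenpa (0.45), Aurka (0.43), Mcm2 and Rfc4 (0.42). At 1500 ng Cenpf (0.74, SE 0.28, limma adjusted p = 0.0267), Mcm10 (0.54) and Mcm5 (0.43) rose as well, and Cenpx (−0.17) and Mcm9 (−0.18, but 0.025 with the mean of its probe sets) fell. Cenpf no longer passed with the beta-actin covariate (0.55, limma adjusted p = 0.114) or with the mean of its probe sets (0.38, limma adjusted p = 0.138). Cdk1, Ncapg and Ccnb2 did not pass at any of the 3 doses: Cdk1 was 0.43, 0.25 and 0.21 above buffer (limma adjusted p = 0.169, 0.484 and 0.474), Ncapg 0.52, 0.49 and 0.31 (0.143, 0.176 and 0.35) and Ccnb2 0.45, 0.28 and 0.19 (0.1, 0.357 and 0.477).

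Among the G1/S and S phase genes of the wider list, 11, 8 and 16 of 31 rose at the 3 doses and 0, 0 and 1 fell, against 7.2%, 7.43% and 21% of all genes that rose. Those called with the smallest p at 1500 ng were Rpa2, which coats single-stranded DNA (0.42), Pold1, a replicative polymerase (0.48), and Cdc7, the kinase that fires origins (0.49). Of 33 G2 and mitosis genes 3, 0 and 6 rose and 0 fell, among them Espl1, the separase (0.62), Incenp (0.49) and Cdca8 (0.81) at 1500 ng, the last 2 being partners of Aurora B. Against the same shares of all genes these counts were near or below the background.

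These calls leaned on the buffer group and on the shared spread. With saline in place of buffer 0, 0 and 9 of the 55 genes were called at the 3 doses in OVA lungs at 24 h (4 up and 5 down at 1500 ng). When the compared groups were fitted alone, 0 were called at 150 ng and 0 at 500 ng.

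In naive lungs at 24 h, limma called 0 of the 55 genes at each dose, against 0.215%, 0% and 0.978% of all genes called, while 5, 7 and 6 had an unadjusted p under 0.05. The smallest p were those of Ncaph (−0.27) and Orc3 (0.12) at 150 ng, Mcm6 (0.39) and Ncapg2 (0.49) at 500 ng and Cenpj (0.23) and Mcm3ap (0.18) at 1500 ng. The response to 1500 ng at 24 h was not shown to differ between OVA and naive lungs: limma called 0 of 55 differences of effect, against 4.42% of all genes, with 6 at an unadjusted p under 0.05. The 2 with the smallest p were Mcm3, whose effect was 0.46 wider in OVA (limma adjusted p = 0.0983), and Orc4 (−0.18, limma adjusted p = 0.167).

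At 6 h most of the called genes were lower after TSLP than after buffer, and the beta-actin signal was lower too. In OVA lungs limma called 0 genes at 150 ng (0.163% of all genes called, 2 of 55 at an unadjusted p under 0.05), 4 rose and 5 fell at 500 ng (all genes 19% and 22%), and 6 rose and 18 fell at 1500 ng (24.8% and 35.9%). The shares of the 55 genes that fell, 9.09% at 500 ng and 32.7% at 1500 ng, were below those of all genes. Cenpf, which rose at 24 h, fell by 0.91 at 1500 ng (SE 0.27, limma adjusted p = 0.00209), and Cenpv (−0.84), Mcm10 (−0.68), Rfc4 (−0.51), Rfc2 (−0.49) and Gins3 (−0.46) fell too. Mcm9 (0.53), Cenpq (0.26), Ncapd3 (0.26), Cenpx (0.19), Orc6 (0.13) and Orc3 (0.11) rose. At 500 ng Mcm6 (−0.43), Cenpv (−0.42), Mcm3 (−0.30), Rfc2 (−0.29) and Mcm3ap (−0.22) fell, and Mcm9 (0.40), Ncapd3 (0.20), Orc3 (0.18) and Cenpx (0.14) rose. The beta-actin 3' minus 5' signal averaged 1.26 ± 0.12 after 1500 ng and 1.79 ± 0.31 after 500 ng, against 2.57 ± 0.26 after buffer (SD, n = 8 each). With that signal as a covariate 1 gene was called at 500 ng, where 0 of the 9 calls above remained. At 1500 ng 1 was called, which was among the calls above, and Cenpf was at −0.13. Of the 24 calls at 1500 ng 10 had the opposite direction with the covariate, among them Orc3 (−0.0060), Rfc4 (0.11) and Gins3 (0.0058).

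In naive lungs at 6 h 1 rose and 11 fell at 150 ng (all genes 11% and 16.2%), 1 rose and 12 fell at 500 ng (15.8% and 26.2%), and 1 rose and 9 fell at 1500 ng (5.53% and 9.82%). The shares of the 55 genes that fell were 20%, 21.8% and 16.4%. They lay above those of all genes at 150 and 1500 ng and below at 500 ng. Rfc4 fell by 0.41, 0.53 and 0.50 at the 3 doses, Gins4 by 0.34, 0.38 and 0.27, Mcm7 by 0.39, 0.40 and 0.26, and Cenpv by 0.36, 0.40 and 0.34. Mcm9 rose by 0.41 at 150 ng and 0.38 at 500 ng, and Orc1 by 0.28 at 1500 ng. With the mean of its 3 probe sets Mcm9 turned to −0.029 at 500 ng. The beta-actin signal averaged 1.64 ± 0.31, 1.44 ± 0.21 and 1.61 ± 0.26 at the 3 doses (SD, n = 8 each), against 2.14 ± 0.31 after buffer (SD, n = 6). With it as a covariate 5, 7 and 0 genes were called, of which 4, 6 and 0 were among the calls above. At 1500 ng the count at 6 h also depended on single lungs, with 4 called without replicate 2 of the 1500 ng group and 6 without its replicate 4.

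Dose order among the 3 TSLP groups alone was followed by few of these genes in 3 of the 4 settings. Per 10-fold dose, limma called 0 positive and 3 negative slopes in OVA lungs at 24 h (15% of all genes called): Cenpo (−0.27), Cenpx (−0.20) and Rfc1 (−0.14, but 0.029 with the mean of its probe sets). In naive lungs at 24 h Cenpj rose with dose (0.30), the only one called, against 0.452% of all genes. In OVA lungs at 6 h 4 slopes were positive and 11 negative (50.4% of all genes called), led by Mcm9 (0.48) and Cenpv (−0.72), and with the beta-actin covariate 1 was called. In naive lungs at 6 h 0 were called by limma (0.17% of all genes), and the smallest p were those of Cenpt (0.19) and Mcm9 (−0.21).

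The buffer alone, set against saline, gave few calls among the genes. In naive lungs at 6 h Orc5 (0.22), Orc4 (0.18), Orc6 (0.16) and Cenpx (0.15) rose and Cenpo (−0.27) fell (all genes 8.09% and 6.83%). Of these 5 calls 0 remained with the compared groups alone, 1 with the beta-actin covariate, 1 with array weights, 2 with the mean of probe sets and 2 without the gullet keratin arrays. Limma called 0 of 55 in OVA lungs at 24 h (0.882% of all genes, 7 of 55 at an unadjusted p under 0.05), 0 in naive lungs at 24 h (0.00741%, 1 of 55) and 0 in OVA lungs at 6 h (0.356%, 5 of 55). The smallest p in OVA lungs at 24 h was that of Cenpa, which was 0.37 lower after buffer (limma adjusted p = 0.176).

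Between 24 h and 6 h most of the called genes were lower at 24 h after saline and buffer, and the mean beta-actin signal of these 4 groups was 1.25 to 1.38 at 24 h, against 2.14 to 2.57 at 6 h. In OVA lungs 6 rose and 19 fell after saline (all genes 25.3% and 35.7%) and 2 rose and 20 fell after buffer (26% and 35.8%). In naive lungs 3 rose and 24 fell after saline (25.1% and 36.1%) and 1 rose and 11 fell after buffer (18.3% and 31.5%). Of the 55 genes 34.5% and 36.4% thus fell in OVA lungs after saline and buffer, close to the shares of all genes. The shares that fell in naive lungs were 43.6% and 20%, above that of all genes after saline and below it after buffer. Cenpf was 0.75 lower after saline and 0.89 lower after buffer in OVA lungs at 24 h, and 1.01 lower after saline in naive lungs, and Rfc4, Rfc2 and Cenpv fell in all 4 settings. Mcm9 rose by 0.57 and 0.56 in OVA and by 0.44 and 0.39 in naive lungs after saline and buffer. With the mean of its 3 probe sets Mcm9 turned to −0.073 in OVA saline, −0.086 in naive saline and −0.15 in naive buffer lungs. With the beta-actin covariate 5 and 2 genes were called in OVA and 7 and 6 in naive lungs after saline and buffer. Of these, 3 and 2 in OVA and 5 and 5 in naive lungs were among the calls above.

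Whether the change with time differed from that after buffer was tested for 1500 ng alone. In OVA lungs after 150 ng 16 rose and 4 fell at 24 h (all genes 21.1% and 24.1%), led by Aurkb (0.87), Ncapg2 (0.78), Cenpi (0.68), Ncapg (0.62), Bub1 (0.61) and Cenpa (0.58), genes of mitosis. The beta-actin signal was 1.39 ± 0.25 at 24 h (SD, n = 8) and 2.29 ± 0.17 at 6 h (SD, n = 7). With the beta-actin covariate 11 were called, 8 of them among the calls above. After 500 ng 0 rose and 2 fell (4.94% and 8.83%), namely Orc2 (−0.14) and Cenpj (−0.20). After 1500 ng 7 rose and 2 fell (17.6% and 13.2%), with Cenpf (0.77), Mcm3 (0.54), Mcm10 (0.51) and Mcm2 (0.36) highest. With the covariate 4 were called, and 3 of these were among the 1500 ng calls without it. In naive lungs 0 rose and 4 fell after 150 ng (5.16% and 8.6%), namely Mcm3 (−0.36), Cenpj (−0.31), Mcm3ap (−0.22) and Rfc2 (−0.22). After 500 ng Bub1 (0.81) and Mcm6 (0.53) rose (1.13% and 1.07%), and after 1500 ng Bub1 (0.84) and Cenpq (0.37) rose (5.05% and 6.06%).

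Tested as a difference of effects, the response to 1500 ng changed between the times in OVA lungs for 24 of the 55 genes, 20 of them higher at 24 h, against 60.2% of all genes called. Cenpf (1.65, SE 0.39, limma adjusted p = 0.000111), Mcm10 (1.22), Mcm3 (1.07), Cenpv (1.06), Mcm2 (0.96) and Rfc4 (0.91) led, and Mcm9 (−0.72) went the other way. In naive lungs 7 were higher and 1 lower at 24 h (17.1% of all genes), with Rfc4 first (0.72). Between OVA and naive lungs at 6 h 4 responses were higher and 4 lower in OVA (31.8% of all genes). With the beta-actin covariate 4 genes were called in OVA lungs between the times, 3 of them among the 24 above. It gave 0 calls in naive lungs and 0 between OVA and naive lungs at 6 h.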

How the data were processed

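RNA from whole lungs was hybridised to Affymetrix arrays, 1 per animal. The deposited table holds 26166 probe sets as log2 values, which the authors normalized by RMA per the submitters' processing notes; how probe sets were chosen for it is not given in the sources used here. No array files were used, so the values were taken as deposited. Probe sets naming a single gene (22892) were kept, and the probe set with the highest mean stood for its gene, which left 13494 genes; 25 of the 55 genes had more than 1 probe set. Groups were taken from the labels.

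In R 4.3.3, limma 3.58.1 fitted 1 mean per group over all 20 groups (129 residual degrees of freedom), with eBayes and 44 contrasts; two-sided p-values were adjusted by Benjamini-Hochberg over all 13494 genes in each contrast, and a gene was called at an adjusted p under 0.05. The procedure was tested on simulated data. Correlations with Cdk1 used values with group means removed. The number of arrays limits the precision. The limma p-values set a difference of group means against the spread between animals within groups, taken over all 20 groups. The 55 genes, the pathway and marker lists and the tests were chosen with earlier results of these data known. The genes named were, by rule, Cdk1, Ccna2, Ccnb2, Aurka, Aurkb, Bub1, Bub1b and Tyms, the 2 per family with the widest and narrowest range of group means, in each comparison the called genes that rose most and fell most, 6 each way (all where 12 or fewer were called, the 2 with the smallest p where none was), and up to 3 per list; others were named after their values were seen. Alternatives were the mean of a gene's probe sets, a filter on dim genes, quantile normalization, the beta-actin 3' minus 5' signal as covariate, 6 arrays with gullet keratins left out, the animal number as block, the compared groups alone, array weights, saline in place of buffer, and leaving out single lungs.
The animal numbers of the labels do not pair the groups: lungs with the same number correlated at a mean of 0.0096 and others at 0.0054.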

Additional observations from a re-analysis of the deposited data

Results flagged for a closer look

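Single lungs stood apart from their groups in 28 cases among the 400 groups of values tested (20 genes with values given per group, in 20 groups). Chance marks about 5% of groups in this way. In each case the lung's gap to its nearest neighbour took up most of the group's whole range. The levels below are log2.

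Of these, 10 were OVA lungs and 18 naive lungs. Aurka was highest in OVA 500 ng 24 h replicate 5 (9.35). Tyms was highest in OVA 1500 ng 6 h replicate 6 (7.18) and lowest in OVA 150 ng 24 h replicate 7 (6.44). OVA 1500 ng 24 h replicate 4 was highest for Cenpf (9.18) and Mcm8 (8.0). Cenpx was highest in OVA buffer 24 h replicate 6 (12.15) and Rfc4 in OVA 150 ng 6 h replicate 7 (11.73). Orc2 was lowest in OVA 500 ng 6 h replicate 1 (10.28) and in OVA 1500 ng 6 h replicate 3 (10.24), and highest in OVA 500 ng 24 h replicate 8 (10.59).

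Among naive lungs, 150 ng 6 h replicate 6 was highest of its group for Cdk1 (9.32), Ccna2 (9.61), Ccnb2 (8.87), Aurkb (6.96), Bub1b (7.92) and Cenpf (8.31), genes whose levels rise and fall together from lung to lung. Naive buffer 6 h replicate 2 was highest for Cdk1 (9.84) and Bub1 (8.39). Naive 1500 ng 24 h replicate 3 was highest for Ccna2 (9.64) and Cenpf (7.37). Bub1 was highest in naive saline 6 h replicate 6 (8.92) and lowest in naive 1500 ng 6 h replicate 2 (6.27). Naive saline 24 h replicate 3 was highest for Gins4 (10.99) and Rfc4 (10.54). Naive buffer 24 h replicate 5 was highest for Ncaph2 (10.80) and lowest for Orc6 (9.36). Orc2 was highest in naive 150 ng 6 h replicate 4 (10.55) and lowest in naive saline 24 h replicate 1 (10.15).

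The response to 1500 ng differed between groups, tested as a difference of effects in limma. Between OVA and naive lungs at 6 h 8 of 55 genes were called (31.8% of all genes): Cenpq (0.45), Mcm9 (0.33), Ncapd3 (0.27) and Cenpx (0.22) responded more positively in OVA, and Cenpv (−0.50), Cenpo (−0.30), Cenpt (−0.28) and Rfc2 (−0.27) more negatively. Between 24 h and 6 h in OVA lungs 24 were called (60.2% of all genes), with Cenpf (1.65), Mcm10 (1.22), Mcm3 (1.07), Cenpv (1.06), Mcm2 (0.96) and Rfc4 (0.91) higher and Mcm9 (−0.72), Cenpx (−0.36), Ncapd3 (−0.24) and Orc4 (−0.21) lower at 24 h. In naive lungs 8 were called (17.1% of all genes): Rfc4 (0.72), Cenpv (0.52), Cenpj (0.45), Gins4 (0.42), Rfc2 (0.415), Mcm3ap (0.41) and Gins3 (0.41) were higher and Mcm9 (−0.34) lower at 24 h. In each comparison the share of the 55 genes called was below that of all genes. The beta-actin 3' minus 5' signal moved with TSLP at 6 h, and with it as a covariate 0, 4 and 0 genes were called in these 3 comparisons. Of the 4 in OVA lungs, 3 were among the calls above.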

How the results depend on the processing

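The rise in OVA over naive lungs held under most alternatives: the main counts of 21 to 42 genes up in a comparison became 22 to 42 with the beta-actin covariate, 19 to 42 without the gullet keratin arrays, 20 to 38 with quantile normalization, 21 to 41 with the animal number as a replicate block, 15 to 41 with the compared groups alone, 22 to 41 with the mean of a gene's probe sets and 27 to 44 with array weights. Of 364 alternative counts 274 stayed within 1.5 times the main one. Of 4679 alternative values of the genes named in a comparison 4265 kept their direction and side of the threshold, 330 dropped under it, 65 passed it and 19 turned. Over all 55 genes and all 44 contrasts, 642 calls were made, of which 30 had the opposite direction with the beta-actin covariate and 22 with the mean of probe sets, and 0 with array weights, the compared groups alone, quantile normalization, the replicate block or without the gullet keratin arrays. Without the dimmest 40% of genes 365 of these calls could be compared, of which 0 turned. The number of arrays and, for dim genes, signal over background limit what can be seen. The filter on dim genes left only 28 of the 55 to count, of which 6 to 18 rose in OVA over naive lungs in a comparison. Cenpe, Cenpf, Mcm10 and Bub1 were among the dim genes left out, while Cdk1, Ncapg and Ccna2 passed the filter. The causes of the changes below were not tested.

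Counts here are of genes called in both directions together, and they can include genes that the main fit did not call. Without the dimmest 40% of genes, OVA minus naive called 11, 6, 16, 17 and 17 at 24 h (saline, buffer, 150, 500 and 1500 ng) and 12, 14, 23, 19 and 12 at 6 h. The same filter gave 7 for 150 ng in OVA lungs at 24 h. It gave 17, 1, 0 and 10 for 24 h minus 6 h in naive saline, naive 500 ng, naive 1500 ng and OVA 150 ng lungs. Dose slopes numbered 5 in OVA and 2 in naive lungs at 24 h.

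With the beta-actin covariate TSLP called 1 and 1 (500 and 1500 ng) in OVA lungs and 5, 7 and 0 (150, 500 and 1500 ng) in naive lungs at 6 h, and buffer minus saline called 1 in naive lungs at 6 h. For 24 h minus 6 h it gave 5, 2, 11 and 4 in OVA saline, buffer, 150 ng and 1500 ng lungs and 7 and 6 in naive saline and buffer lungs. Differences of effect numbered 0 between OVA and naive at 6 h, 4 between times in OVA and 0 in naive lungs, and slopes 5 in OVA lungs at 24 h and 1 at 6 h.

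With saline in place of buffer, TSLP called 0, 0 and 9 in OVA lungs at 24 h, 2 and 23 (150 and 500 ng) in OVA lungs at 6 h, and 26, 24 and 25 in naive lungs at 6 h. With the compared groups alone, TSLP called 0 and 0 (150 and 500 ng) in OVA lungs at 24 h and 3 and 0 (150 and 1500 ng) in naive lungs at 6 h, and buffer minus saline 0 in naive lungs at 6 h. Then 24 h minus 6 h gave 13, 1 and 15 in OVA and 9, 0 and 1 in naive lungs (150, 500 and 1500 ng), differences of effect 5 (OVA minus naive, 6 h) and 5 (between times, naive), and the slope in naive lungs at 24 h 0.

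With array weights TSLP called 34, 8 and 22 in OVA lungs and 3 (150 ng) in naive lungs at 24 h, and buffer minus saline 17 in OVA lungs at 24 h and 1 in naive lungs at 6 h. Then 24 h minus 6 h gave 8 and 19 in OVA lungs (500 and 1500 ng) and 9, 8 and 5 in naive lungs (150, 500 and 1500 ng). Differences of effect between OVA and naive numbered 6 at 24 h and 3 at 6 h, and slopes 10 in OVA lungs at 24 h, 3 in naive lungs at 24 h and 1 in naive lungs at 6 h. The mean of probe sets gave 5 for 1500 ng and 3 for buffer minus saline in naive lungs at 6 h. It gave 1, 2 and 1 for 24 h minus 6 h (OVA 500 ng, naive 150 and 500 ng), 5 and 5 for differences of effect (OVA minus naive at 6 h, between times in naive) and 9 for the slope in OVA lungs at 6 h.

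Quantile normalization gave 8 for 150 ng in OVA lungs at 24 h, 1 at 6 h, and 5 for the OVA slope at 24 h. Without the gullet keratin arrays the counts were 1 for 150 ng in OVA lungs at 6 h, 3 for buffer minus saline in naive lungs at 6 h, 2 for OVA minus naive effects at 6 h, and 6 and 2 for the slopes in OVA and naive lungs at 24 h. The replicate block changed only 24 h minus 6 h after 500 ng, to 4 in OVA and 1 in naive lungs, by over 1.5 times. The animal numbers are no pairing: 17 lungs correlated best with one of their own number.

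Leaving out 1 lung at a time (of both groups after buffer, of the TSLP group for 1500 ng) gave 7 to 26 calls for OVA minus naive after buffer at 24 h and 27 to 34 at 6 h, 10 to 15 and 22 to 26 for 1500 ng in OVA lungs at 24 h and 6 h, and 0 to 2 and 4 to 12 in naive lungs at 24 h and 6 h. The calls in naive lungs at 24 h were 2 without 1500 ng replicate 5 and 1 without replicate 3.

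The named genes that turned are these. With the mean of probe sets, Orc4 turned in OVA minus naive to 0.081 (150 ng, 6 h), 0.052 (500 ng, 24 h) and 0.11 (1500 ng, 24 h), in the effect between times in OVA lungs to 0.14 and in the OVA slope at 6 h to −0.034. Mcm9 turned to −0.029 (500 ng, naive, 6 h), 0.025 (1500 ng, OVA, 24 h), −0.073, −0.086 and −0.15 (24 h minus 6 h in OVA saline, naive saline and naive buffer lungs) and 0.16 (effect between times, naive). Ncapd3 turned to 0.075 (effect between times, OVA) and Rfc1 to 0.029 (OVA slope, 24 h). With the beta-actin covariate 10 of 24 calls turned for 1500 ng in OVA lungs at 6 h, and 3 of 25 and 6 of 22 for 24 h minus 6 h in OVA saline and buffer lungs. Among the named, Orc3 turned to −0.0060, Rfc4 to 0.11 and Gins3 to 0.0058 for 1500 ng in OVA lungs at 6 h, Rfc4 to 0.059 for the OVA slope at 6 h, Gins3 to 0.019 for 24 h minus 6 h in naive buffer lungs and Cenpj to 0.052 for 24 h minus 6 h in OVA 150 ng lungs.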
